A study of Mus musculus with 6 samples.

Results

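The microRNA family of miR-148a, miR-148b and miR-152 is described here across mouse skin. Its members are the entries with these names in the deposited count table, 6 of 1480, which are the 3p and 5p strands of 3 hairpins. The family was chosen by its high read counts in these same libraries, so its levels are given as a description, with no test. Small RNA was sequenced from skin of mice that received UVA on alternate days over 4 months, 89.88 J/cm2 in all (3 libraries), and from skin of non-irradiated mice (3 libraries). The labels give mouse skin as tissue and cell type, with no strain, age, sex or body site, and do not state whether each library is its own animal, so the spread behind each p-value may be technical.

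MicroRNAs are short RNAs cut from hairpin precursors and loaded into Argonaute proteins. They pair with target mRNAs mainly through the seed, bases 2 to 8 from the 5′ end, and lower the stability and translation of those mRNAs. Of the strands of a hairpin, the one that is kept is called the guide and the other the passenger. The miR-148 and miR-152 family is known for targeting the mRNA of the maintenance DNA methyltransferase DNMT1. miR-148a is also known as a regulator of the LDL receptor in mouse liver and of B cell tolerance in mice.

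The mature 3p strands are shown first because they share a seed, given in capitals, and differ in few bases beyond it. The 5p strands follow, again with bases 2 to 8 in capitals. Sequences are those of RefSeq on GRCm38.p6, 5′ to 3′, and each matched the sequence in the deposited table.
miR-148a-3p: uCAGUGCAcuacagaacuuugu
miR-148b-3p: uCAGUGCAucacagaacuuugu
miR-152-3p: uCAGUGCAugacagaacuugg
miR-148a-5p: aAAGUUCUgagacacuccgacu
miR-148b-5p: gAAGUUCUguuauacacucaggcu
miR-152-5p: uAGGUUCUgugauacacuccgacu

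Counting bases from 1 at the 5′ end, miR-148b-3p differs from miR-148a-3p by C9U and U10C. miR-152-3p differs from miR-148a-3p by C9U, U10G and U20G and is 1 base shorter. The seed of the 3p strands was carried by 3 of the 1480 entries of the table, which are these 3 strands, so the reads of this seed are the reads of the family. The 5p strands of miR-148a and miR-148b share bases 2 to 8, and that of miR-152 does not match them there. miR-148a-3p and miR-148b-3p are 2 edits apart and miR-148b-3p and miR-152-3p are 3 edits apart. The rule by which the authors assigned reads to such close sequences is not given here, which leaves some uncertainty in the values of these strands.

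In GRCm38 the hairpin Mir148a lies on chromosome 6 at 51269812 to 51269910, minus strand, outside any other annotated gene. Its nearest gene is the long non-coding RNA Gm32479, 13.6 kb away, and its nearest protein-coding gene is Nfe2l3, 163 kb away. Mir148b lies within an intron of Copz1, on chromosome 15 at 103285125 to 103285221, plus strand. Mir152 lies within an intron of Copz2, on chromosome 11 at 96850393 to 96850465, plus strand. Copz1 and Copz2 encode the alternative zeta subunits of the COPI vesicle coat, and both hairpins lie on the strand of their host gene. Each hairpin stands alone, with the nearest annotated miRNA gene 65.2 kb away for Mir148b, 213 kb for Mir152 and 352 kb for Mir148a.

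UVA libraries held between 8194504 and 12817972 miRNA reads, and non-irradiated libraries between 7653819 and 17192811. Total reads by the authors' count were fewer with UVA (20.5 to 21.9 M) than without (26.9 to 30.5 M), so sequencing depth and treatment cannot be told apart. Non-irradiated replicates 1 and 2 held only 21 and 34 entries with 1 to 9 reads. Non-irradiated replicate 3 held 299, and the UVA libraries held 579 to 591. Of the marker lists, 7 of 7 epithelial miRNAs had reads in every library, with a summed level of 34090.2 to 86159 counts-per-million (CPM) with UVA and 44040.5 to 53951 CPM without irradiation. By edgeR, 1 of the 7 was called higher with UVA, where 13.6% of tested miRNAs were called higher. The striated muscle list (6 of 7 with an entry) summed to 41907 to 58523 CPM with UVA and 318624 to 479266 CPM without irradiation. The gap lay mainly in miR-1a-3p, at 20088 to 54395 CPM with UVA and 296932 to 437319 CPM without. miR-206-3p overlapped, at 3589 to 29616 CPM with UVA and 21013 to 41514 CPM without, and the calls of the list are given below. Of the muscle list, miR-208b-3p was listed at 0 in non-irradiated replicates 1 and 2. In bulk skin, fewer cells of a type and less RNA per cell cannot be told apart.

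The family made up a large share of skin miRNA reads in both groups. It took 22.3, 6.71 and 6.78% of miRNA reads in UVA replicates 1, 2 and 3 and 10.8, 20.5 and 11.6% in non-irradiated replicates 1, 2 and 3. The groups overlap, because UVA replicate 1 holds the highest share of all libraries and UVA replicates 2 and 3 the lowest. Counting error was small beside this, with exact Clopper-Pearson 95% intervals reaching no more than 0.0228 percentage points to each side. The mean share was 11.9% ± 8.98 with UVA and 14.3% ± 5.38 without irradiation (SD, n = 3 each), a difference within the spread of either group. The difference of the means, UVA minus non-irradiated, was -2.35 percentage points with all libraries, -7.53 when UVA replicate 1 was left out and 0.75 without non-irradiated replicate 2.

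A share depends on what else is in the library. The striated muscle miRNAs, chiefly miR-1a-3p and miR-206-3p, took 7.16, 5.08 and 5.98% of miRNA reads with UVA, against 39.7, 28.5 and 28.6% in the non-irradiated libraries. Of the 5 muscle miRNAs tested, miR-1a-3p was called lower in UVA skin (log2 fold change -3.29, edgeR adjusted p = 0.00196), miR-133b-3p was called higher (1.84, edgeR adjusted p = 0.0459) and 3 were not called. Of all tested miRNAs, 8.22% were called lower and 13.6% higher. miR-133b-3p is near-identical in sequence to miR-133a-3p. Of the miRNA reads that remained without the muscle miRNAs, the family took 24.0, 7.07 and 7.21% in UVA and 17.9, 28.6 and 16.2% in non-irradiated skin. UVA replicate 1 lies among the non-irradiated libraries on that basis and UVA replicates 2 and 3 lie below all of them. The part of the muscle reads in the differences between groups was not tested.

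**Figure D1:**
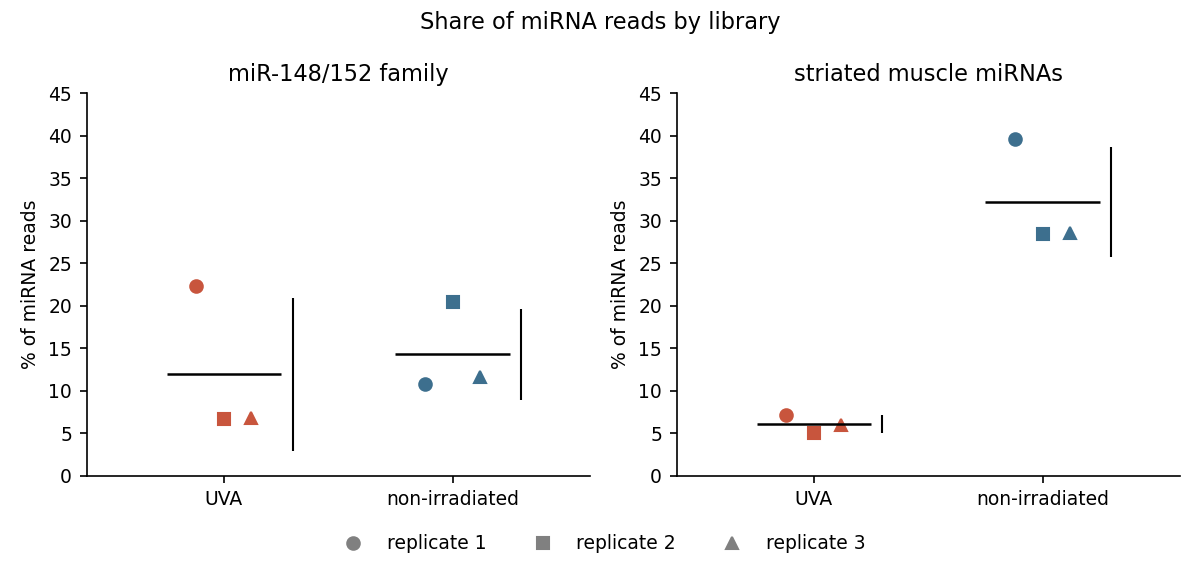
Share of all miRNA reads, in percent, taken by the family (left) and by the striated muscle miRNAs (right) in each library. Points are libraries, shaped by replicate number, the horizontal line is the mean of 3 libraries and the vertical line spans 1 SD to each side. The family spans 6.71 to 22.3% in UVA and 10.8 to 20.5% in non-irradiated skin, while the muscle shares of the groups lie far apart.

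Nearly all reads of the family came from a single strand. miR-148a-3p supplied 98.1, 93.2 and 96.9% of the reads of the 3 guide strands with UVA, against 97.5, 99.0 and 98.2% in the non-irradiated libraries. By mean CPM over the 6 libraries it was the miRNA with rank 2, below miR-1a-3p and above miR-143-3p, miR-26a-5p and let-7f-5p. Within single libraries it ranked 1, 5 and 5 in UVA replicates 1, 2 and 3 and 2 in each non-irradiated library. miR-152-3p ranked from 33 to 59 in UVA and from 35 to 45 in non-irradiated libraries. miR-148b-3p ranked from 54 to 73 in UVA and from 68 to 79 in non-irradiated libraries. These orders compare reads, and small RNA library preparation captures different sequences unequally.

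The question of the main comparison was whether repeated UVA exposure goes with another level of the family in skin. None of the 6 members was called by edgeR's quasi-likelihood test, at an adjusted p of 0.05 or lower over all tested miRNAs, where 21.8% of the 499 tested miRNAs were called. All 6 members passed the filter on low counts. The groups overlapped in each of the 6 members, while 48.3% of tested miRNAs had groups that did not overlap. The unadjusted p was above 0.05 for all 6, while 40.7% of tested miRNAs had one of 0.05 or lower. The DESeq2 Wald test called 0 of 6 members and 38.3% of tested miRNAs, and limma-voom called 0 of 6 members and 30.3%. Of the members, 3 had positive and 3 negative log2 fold changes, with a median of -0.0033, against a median of 0.27 over all tested miRNAs. In the authors' deposited table the q of the members ran from 0.663 to 1, and 59 of 1480 entries had a q of 0.05 or lower. The 95% intervals of the members, given below, leave room for changes in either direction. In simulated data edgeR called only 5.69% of 2-fold changes, 42% of 4-fold changes and 77% of 8-fold changes. An absence of calls therefore cannot exclude changes of these sizes.

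mmu-miR-148a-3p, the dominant guide strand, was at 178769, 51392 and 55059 CPM in UVA replicates 1, 2 and 3 and at 126839.8, 265925 and 126661 CPM in non-irradiated replicates 1, 2 and 3. UVA replicates 2 and 3 lie below all non-irradiated libraries, and UVA replicate 1 lies above non-irradiated replicates 1 and 3. The means were 95073 ± 72505 CPM with UVA, against 173142 ± 80352 CPM in the non-irradiated libraries (SD, n = 3 each; log2 fold change -0.86, SE 0.53, 95% interval -2.05 to 0.32, edgeR adjusted p = 0.242). Without UVA replicate 1, miR-148a-3p was called lower in UVA skin, at -1.78 on the log2 scale (SE 0.43, edgeR adjusted p = 0.0189), in a fit that called 8.42% of tested miRNAs lower. No other left-out library gave a call for it. When scaled by library size its log2 fold change was -0.28, by the authors' totals -0.082 and with muscle miRNAs left out -0.49. The SD of its log2 CPM was 1.01 in UVA, above that of 69.5% of tested miRNAs, and 0.62 in non-irradiated skin, above that of 52.9%. In the authors' deposited table, UVA over non-irradiated, its log2 fold change is -0.77 with a q of 0.774.

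Over the 499 tested miRNAs, UVA replicate 1 correlated more closely with the other UVA libraries than with the non-irradiated ones. The Pearson r of its log2 CPM was 0.961 and 0.925 with UVA replicates 2 and 3 and 0.847 to 0.882 with non-irradiated libraries. The other UVA pair had 0.954, and 0.925 was the lowest r of any pair within a group. This is a description over miRNAs that share their libraries. Such an r mostly reflects differences in abundance between miRNAs, so it cannot show whether UVA replicate 1 stood apart from its group. UVA replicate 1 held the highest summed level of the 5 leukocyte markers, at 1425 CPM, against 631 and 774 CPM in UVA replicates 2 and 3 and 529 to 846 CPM in non-irradiated skin. The 3 erythroid markers summed to 3403, 807 and 1455 CPM in UVA replicates 1, 2 and 3 and to 2105 to 2861 CPM in non-irradiated skin. All 5 leukocyte and 3 erythroid markers had reads in every library. By edgeR, 1 leukocyte marker was called lower with UVA, where 8.22% of tested miRNAs were called lower, and no erythroid marker was called. The part of blood cells in the level of miR-148a-3p was not tested. Markers of the exocrine pancreas, a tissue rich in miR-148a, were near 0, with a sum of at most 6.32 CPM with UVA and 0.437 CPM without irradiation. The sum was 0 in non-irradiated replicates 1 and 2, which held few entries with low counts, so the groups cannot be compared for it. miR-122-5p, the hepatocyte marker, had 2.53 to 10.5 CPM in UVA and 51.8 to 153 CPM in non-irradiated skin and was called lower with UVA.

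mmu-miR-152-3p, the guide strand encoded in Copz2, was at 2877, 2402 and 981 CPM in UVA replicates 1, 2 and 3 and at 2702, 2149 and 1853 CPM in the non-irradiated replicates. UVA replicate 3 is the lowest and UVA replicate 1 the highest of all 6 libraries. The means were 2086 ± 987 CPM with UVA, against 2235 ± 431 CPM in the non-irradiated libraries (SD, n = 3 each; log2 fold change -0.10, SE 0.47, 95% interval -1.15 to 0.96, edgeR adjusted p = 0.907). The sign of its change turned positive when scaled by library size, by the authors' totals or with muscle miRNAs left out, and without UVA replicate 3.

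mmu-miR-148b-3p, the guide strand encoded in Copz1, was at 546, 1343 and 774 CPM with UVA, against 492, 588 and 447 CPM without irradiation, in replicate order. UVA replicates 2 and 3 lie above all non-irradiated libraries, and UVA replicate 1 lies below non-irradiated replicate 2. The means were 888 ± 410.2 CPM with UVA, against 509 ± 72.3 CPM in the non-irradiated libraries (SD, n = 3 each; log2 fold change 0.80, SE 0.47, 95% interval -0.25 to 1.85, edgeR adjusted p = 0.22). Its log2 fold change was positive in all 16 alternatives that kept it as an entry of its own, from 0.38 without UVA replicate 2 to 1.52 when scaled by the authors' totals, and in none of them was it called, with adjusted p from 0.0539 to 0.665.

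The 5p strands were scarcer. miR-152-5p had 61.2, 40.3 and 46.9 CPM with UVA, against 24.5, 16.4 and 42.7 CPM without irradiation, in replicate order. Non-irradiated replicate 3 lies above UVA replicate 2 and the other two non-irradiated libraries lie below all UVA libraries. The means were 49.5 ± 10.7 CPM with UVA, against 27.9 ± 13.4 CPM in the non-irradiated libraries (SD, n = 3 each; log2 fold change 0.83, SE 0.54, 95% interval -0.37 to 2.03, edgeR adjusted p = 0.26). When scaled by the authors' totals, miR-152-5p was called higher (log2 fold change 1.72, edgeR adjusted p = 0.0395), in a fit that called 29.1% of tested miRNAs higher. Without non-irradiated replicate 2 its log2 fold change was 0.30 (edgeR adjusted p = 0.77), and without non-irradiated replicate 1 it was 0.54 (edgeR adjusted p = 0.601).

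mmu-miR-148a-5p had 100.5, 111 and 54.1 CPM with UVA, against 85.3, 92.4 and 92.8 CPM without irradiation. The 3 non-irradiated values lie within those of the UVA libraries (log2 fold change -0.024, SE 0.48, 95% interval -1.10 to 1.05, edgeR adjusted p = 0.976). Over the non-irradiated libraries the largest value of miR-148a-5p was 1.09 times the smallest, and that of miR-148a-3p from the same hairpin was 2.10 times the smallest. miR-148b-5p had 20.5, 17.8 and 19.0 CPM with UVA, against 15.7, 19.6 and 21.4 CPM without irradiation (log2 fold change 0.017, SE 0.51, 95% interval -1.12 to 1.15, edgeR adjusted p = 0.984). It spanned 1.36-fold over all 6 libraries, the narrowest span in the family, against 5.17-fold for miR-148a-3p.

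**Figure D2:**
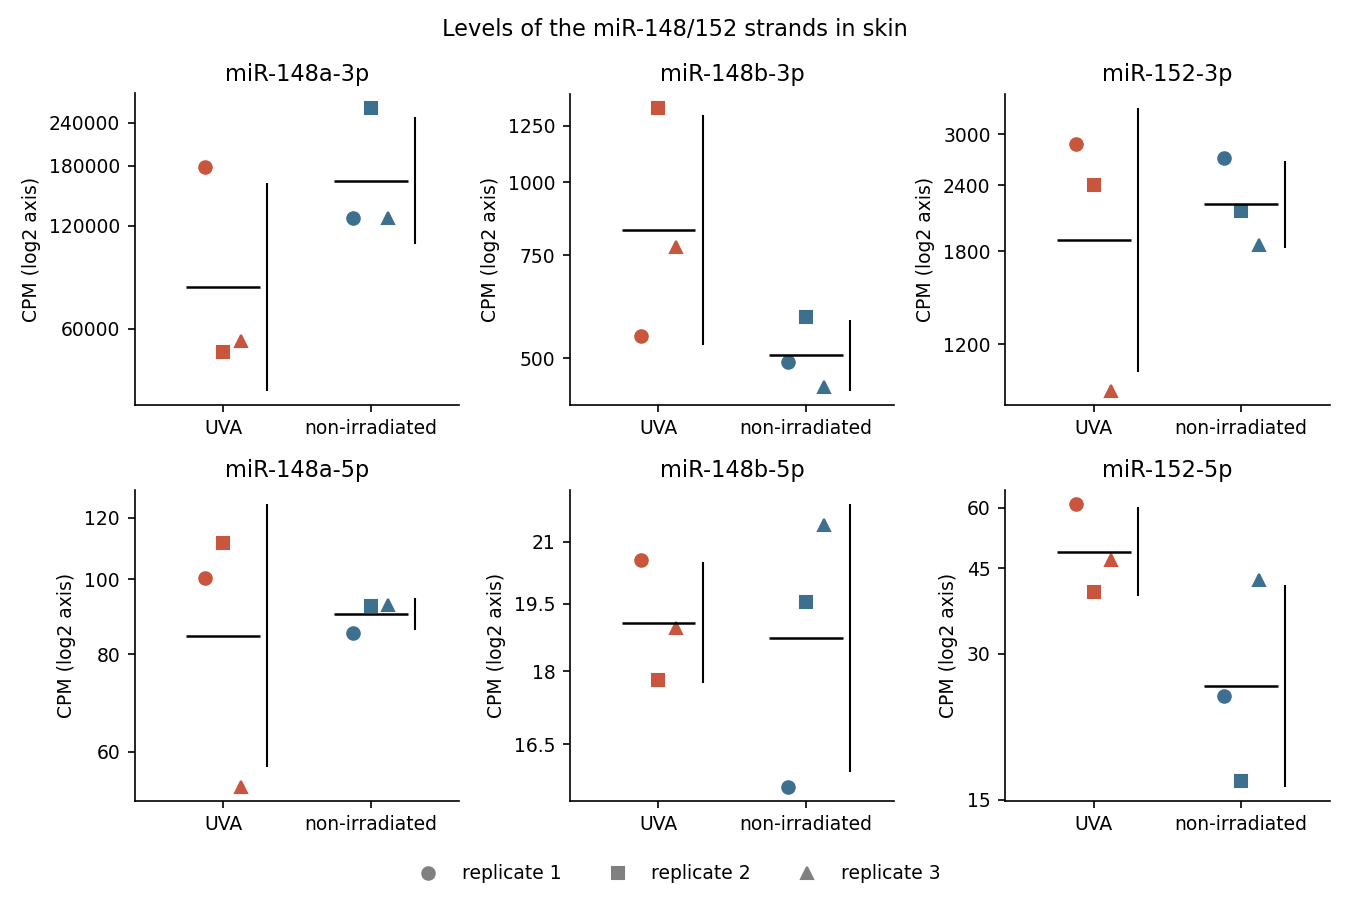
CPM of each strand of the family by library on log2 axes, with UVA libraries left and non-irradiated libraries right in each panel, 3p strands above and 5p strands below. Points are shaped by replicate number, the horizontal line is the mean of log2 values and the vertical line spans 1 SD of log2 values to each side. The groups overlap in each panel, and each panel has its own scale.

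**Figure D3:**
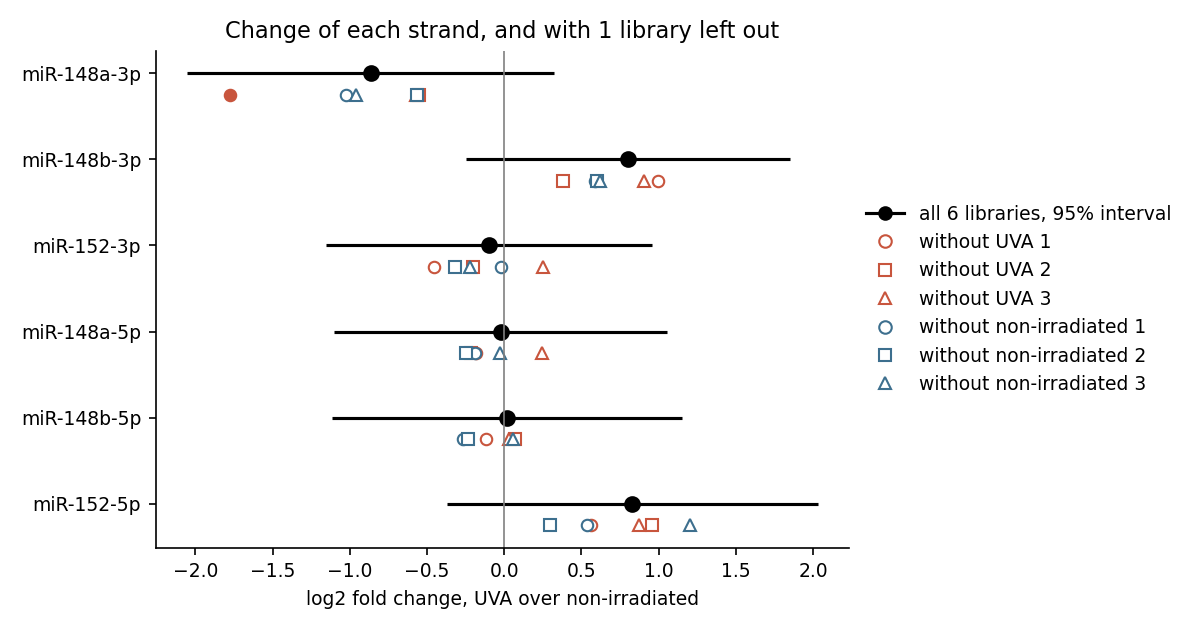
Log2 fold change of each strand, UVA over non-irradiated, from edgeR. Black points and lines give the estimate and its 95% interval from all 6 libraries, and coloured points give the estimate with 1 library left out, filled where the adjusted p was 0.05 or lower. All 6 intervals include 0, and the single filled point is miR-148a-3p without UVA replicate 1, at -1.78.

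Ratios of reads within a library do not depend on scaling and were compared for the 3 pairs of guide strands. miR-148a-3p had 327, 38.3 and 71.1 reads per read of miR-148b-3p in UVA replicates 1, 2 and 3 and 258, 452 and 284 in the non-irradiated replicates. UVA replicates 2 and 3 lie below all non-irradiated libraries and UVA replicate 1 lies between non-irradiated replicates 3 and 2. On the log2 scale the ratio was 6.59 ± 1.59 with UVA and 8.33 ± 0.43 without irradiation (SD, n = 3 each), a difference of -1.74 (SE 0.95; exact permutation test, 2-sided, p = 0.3, 0.4 adjusted over the 3 pairs). The smallest p that 3 against 3 allows is 0.1.

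The ratio of miR-152-3p to miR-148b-3p was 5.27, 1.79 and 1.27 in UVA and 5.49, 3.65 and 4.15 in non-irradiated skin, again with UVA replicate 1 among the non-irradiated values (log2 difference -0.93, SE 0.64; exact permutation test, 2-sided, p = 0.3, 0.4 adjusted). The ratio of miR-148a-3p to miR-152-3p was 62.1, 21.4 and 56.2 in UVA and 46.9, 124 and 68.3 in non-irradiated skin (log2 difference -0.80, SE 0.64; exact permutation test, 2-sided, p = 0.4, 0.4 adjusted). With that smallest p of 0.1, none of the 3 pairs could have reached 0.05, so these values describe the libraries.

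The use of the strands of each hairpin was compared in the same way. The Mir148a hairpin is shown, 5′ to 3′ and with its 5p and then its 3p strand in capitals, because its strands were the most unequal of the family.
Mir148a: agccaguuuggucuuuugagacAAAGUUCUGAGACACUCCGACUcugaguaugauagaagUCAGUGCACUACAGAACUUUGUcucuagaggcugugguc
It gave 1779, 461 and 1018 reads of the 3p strand per read of the 5p strand in UVA replicates 1, 2 and 3 and 1487, 2877 and 1366 in the non-irradiated replicates. Of the 74 hairpins with 10 or more reads of each strand in every library, 1 had a lower mean ratio of 5p to 3p reads. miR-152 gave 47.0, 59.7 and 20.9 reads of 3p per read of 5p in UVA and 110.3, 131 and 43.4 in non-irradiated skin. miR-148b gave 26.6, 75.4 and 40.8 in UVA and 31.4, 30.1 and 20.9 in non-irradiated skin.

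None of the 3 hairpins was called for strand use by limma on the log2 ratio of 5p to 3p reads, where 36.5% of the 74 hairpins were called, and their groups overlapped, where 44.6% of the hairpins had groups that did not. With 0 of 3 called, 0 of 3 also had an unadjusted p of 0.05 or lower, against 40.5% of the hairpins. The log2 change of 5p over 3p, UVA minus non-irradiated, was 0.94 for miR-148a (SE 0.74, 95% interval -0.54 to 2.41, limma adjusted p = 0.311). It was 1.14 for miR-152 (SE 0.74, 95% interval -0.34 to 2.61, limma adjusted p = 0.221). It was -0.69 for miR-148b (SE 0.73, 95% interval -2.15 to 0.77, limma adjusted p = 0.467).

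**Figure D4:**
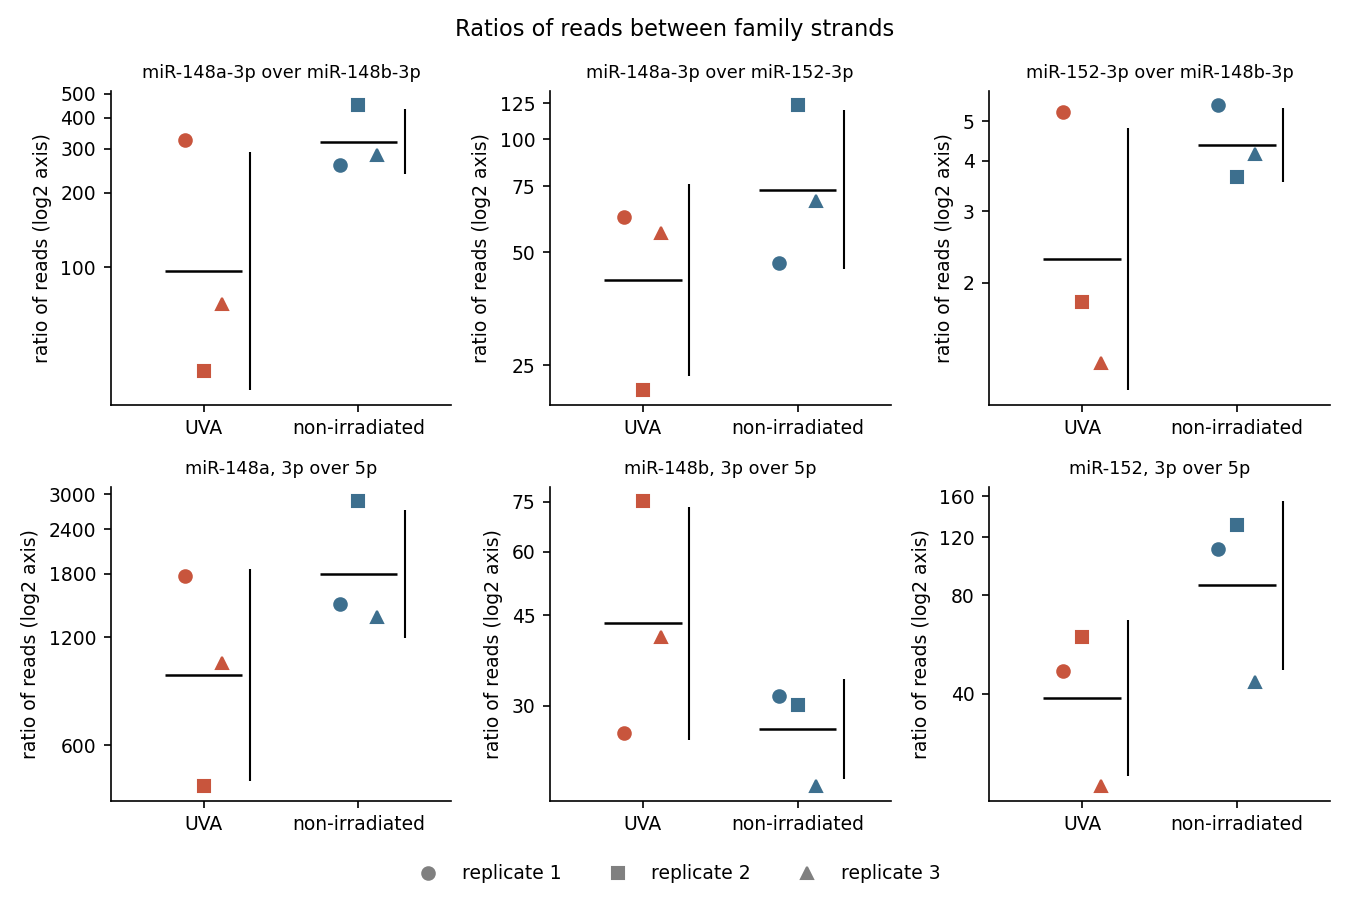
Ratios of reads within each library on log2 axes, for the 3 pairs of guide strands (above) and for 3p over 5p reads of each hairpin (below). Points are libraries shaped by replicate number, the horizontal line is the mean of log2 ratios and the vertical line spans 1 SD of them to each side. In the left upper panel UVA replicate 1, at 327, lies with the non-irradiated libraries while UVA replicates 2 and 3 lie at 38.3 and 71.1.

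The course of each guide strand over the 6 libraries was compared with that of 474 other tested miRNAs with miRBase names. Likeness was measured as the Euclidean distance between log2 CPM values centred on their mean over the 6 libraries, and is a description with no test. The distance also depends on how widely a miRNA varies, so ranks from different guide strands are not on one scale. None of the guide strands was among the 3 miRNAs nearest to another, but 3 places among 474 are few. From miR-148a-3p, miR-152-3p lay at a distance of 1.85, at rank 25 of likeness, and miR-148b-3p at 3.16, at rank 197. Its own 5p strand stood at rank 36. The nearest to miR-148a-3p were miR-708-3p, miR-7043-3p and miR-497b, at distances of 1.10, 1.12 and 1.34, of which miR-497b had a mean of 3.48 CPM.

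The nearest to miR-152-3p were miR-30a-5p, miR-200a-3p and miR-203-3p, at distances of 0.434, 0.457 and 0.557. The last pair of these are members of the epithelial marker list, and miR-203 is a miRNA of differentiating keratinocytes. miR-200a-3p had 3309, 3423 and 944 CPM with UVA, against 3370.3, 2939.6 and 2404 CPM without irradiation, with UVA replicate 3 lowest as for miR-152-3p. Within the family, miR-148a-5p was nearest to miR-152-3p, at a distance of 0.692 and rank 5 of likeness, and miR-148a-3p stood at rank 76. The nearest to miR-148b-3p were miR-23b-3p, miR-130b-3p and miR-500-3p, at distances of 0.535, 0.553 and 0.639. miR-130b-3p had 6 to 46 reads per library, so its course is coarse.

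**Figure D5:**
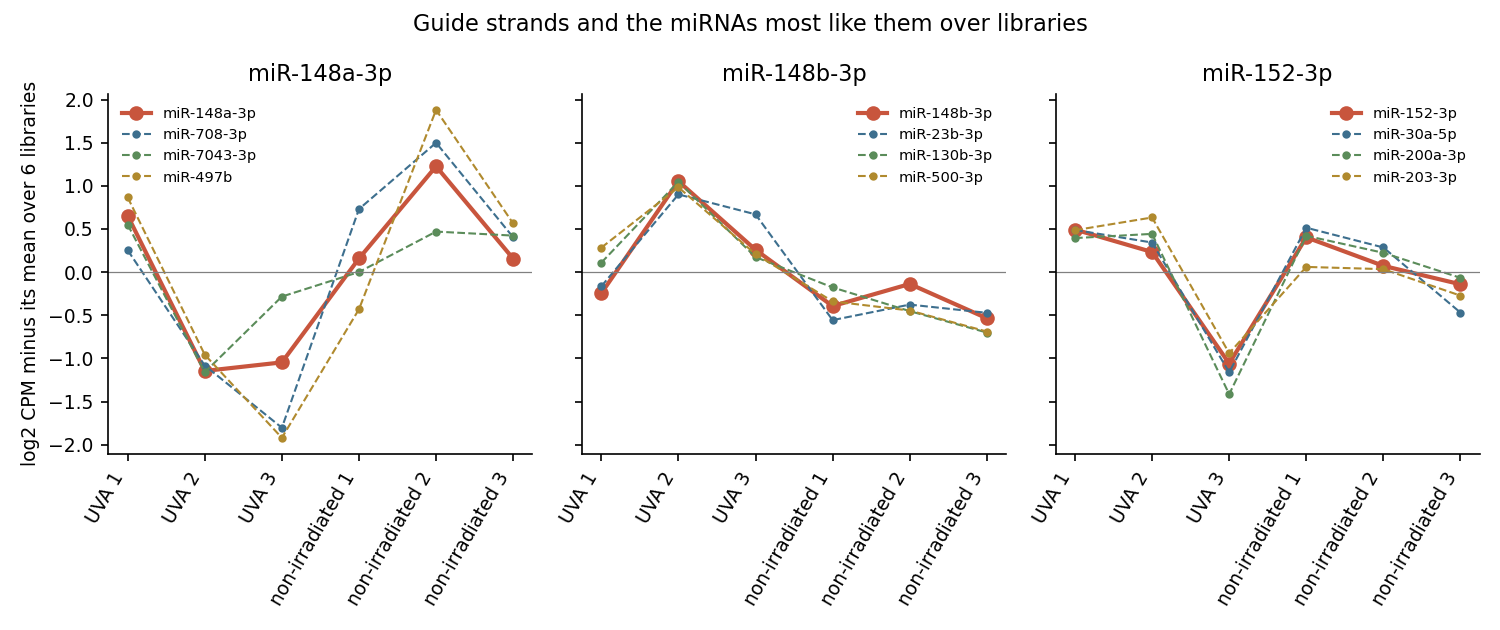
Log2 CPM minus its mean over the 6 libraries for each guide strand (thick line) and the 3 miRNAs at the smallest distance from it (dashed lines), with UVA libraries left and non-irradiated libraries right. Lines join libraries only to guide the eye. miR-148a-3p is low in UVA replicates 2 and 3, miR-148b-3p is high in UVA replicate 2, and miR-152-3p is low in UVA replicate 3.

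Other miRNAs described as regulators of DNA methyltransferases in other tissues were compared beside the family. Of 10 listed and tested, 1 was called higher, 1 was called lower and 8 were not called, with a median log2 fold change of 0.17 against 0.27 over all tested miRNAs, of which 13.6% were called higher and 8.22% lower. Over all tested miRNAs that is 68 higher and 41 lower, and when scaled by library size it is 122 higher and 27 lower. Scaled by library size, the list itself had 2 higher and 0 lower. With single libraries left out, it had 1 to 3 higher and 0 to 2 lower, where all tested miRNAs had 20 to 85 higher and 18 to 60 lower. miR-29a-3p, which targets the mRNAs of DNMT3A, DNMT3B and collagens, was at 3053, 5070.3 and 2122 CPM with UVA, against 508, 295 and 466 CPM without irradiation. Its sequence is near-identical to that of miR-29c-3p, which adds the same uncertainty as above. All UVA libraries lie above all non-irradiated libraries (log2 fold change 3.01, SE 0.50, edgeR adjusted p = 0.00536). The call was lost only without non-irradiated replicates 1 and 2 together (log2 fold change 2.55, adjusted p = 0.229), among the alternatives run. The 3 fibroblast markers, all with reads in every library and 2 of them called higher, summed to 18570.0 to 28201 CPM with UVA and 2554 to 3761 CPM without irradiation, and their part in the level of miR-29a-3p was not tested.

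miR-143-3p, a smooth muscle and mesenchymal miRNA that targets DNMT3A mRNA in human cells, was at 30303, 33703 and 27997 CPM with UVA, against 50752, 147832 and 78149.5 CPM without irradiation. All UVA libraries lie below all non-irradiated libraries (log2 fold change -1.59, SE 0.42, edgeR adjusted p = 0.0255). The call of miR-143-3p was lost without UVA replicates 2 and 3 and non-irradiated replicate 2 in turn, with log2 fold changes of -1.65, -1.51 and -1.36 (adjusted p of 0.103, 0.0584 and 0.054). It was also lost without non-irradiated replicates 1 and 2 together (-1.69, adjusted p = 0.146) and when scaled by library size (0.0852) or by the authors' totals (0.195). miR-101a-3p of this list, named after its values were seen, had 1699.6, 165 and 132 CPM with UVA, against 2275, 4089.8 and 1987 CPM without irradiation and was not called (edgeR adjusted p = 0.116). It is near-identical in sequence to miR-101b-3p. Within the UVA group it was highest in replicate 1, as miR-148a-3p was, but all UVA libraries lie below all non-irradiated libraries.

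The miR-130 and miR-301 miRNAs carry 6 bases of the same seed, AGUGCA, shifted by 1 position toward their 5′ end, and are set beside the family for that reason, with miR-130a-3p shown with bases 2 to 8 in capitals.
miR-130a-3p: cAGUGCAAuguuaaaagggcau
Of 6 such miRNAs listed, 4 have an entry here and 3 were tested. None of the 3 was called, by edgeR in any alternative run, by DESeq2 or by limma-voom. Over all tested miRNAs, 21.8% were called by edgeR in the main fit, 38.3% by DESeq2 and 30.3% by limma-voom. With only 3 tested, an absence of calls sets the list little apart from these shares. Of the 3, miR-130b-3p had 6 to 46 reads per library and miR-301a-3p had 2 to 67. These sequences were scarce beside the family. miR-130a-3p, the most abundant of them, had 31.2, 50.8 and 21.0 CPM with UVA, against 20.6, 23.1 and 22.1 CPM without irradiation. For each read of the 5 entries with the shifted 6 bases at positions 2 to 7, the family guide strands had 996 to 4874 reads in UVA and 4730.5 to 10137 reads in non-irradiated libraries.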

How the data were processed

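Small RNA of mouse skin was sequenced from 3 UVA and 3 non-irradiated samples, as TruSeq Small RNA libraries of mirVana total RNA, per the labels' protocols. Titles gave the groups and replicate numbers, and sample descriptions gave the columns. The deposited counts are whole reads per mature sequence. The submitters' processing notes name Bowtie. No source used here gives its version, the genome build or the miRNA release. Dividing the counts by the deposited RPM values gave 1 constant per library, the authors' total reads. The deposited table also holds the authors' mean normalized counts (a signal per group), their fold ratios and log2 fold changes, and their p-values and q-values. Of its lines, 2 were emptied and were not analysed here.

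edgeR 4.0.16 (R 4.3.3; TMM, filterByExpr, quasi-likelihood test) was run on 499 miRNAs, with Benjamini-Hochberg adjustment over all of them and calls at 0.05 or lower. CPM is per TMM-scaled library. SE is the log2 fold change, without its sign, over the square root of F. Strand use was tested with limma 3.58.1 on log2 of (5p + 0.5)/(3p + 0.5), where each strand had at least 10 reads per library, and guide ratios with exact permutation tests. Alternatives were DESeq2 1.42.0, limma-voom, other scalings, no filter, left-out libraries and the replicate number as a block. Replicates of a group differed by more than sampling noise in every pair. The fits were tested on simulated data with known changes. The members, the lists and the tests were chosen with earlier results of these data known. Named miRNAs are the members, the 3 nearest in course to each guide strand, the 5 most abundant and the called list members. miR-101a-3p, miR-130a-3p and the markers miR-122-5p, miR-133b-3p, miR-206-3p and miR-208b-3p were named after values were seen. Sequences come from RefSeq (all 6 members matched) and gene coordinates from GENCODE M21. Reads carry no molecular identifiers, so the Clopper-Pearson intervals of the shares cover counting error only. Intervals of log2 fold changes and of strand use also hold the variation between libraries.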

Additional observations from a re-analysis of the deposited data

How the results depend on the processing

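Over all miRNAs, the 109 calls (68 higher, 41 lower) became 149 by library size (122 higher, 27 lower), 167 by the authors' totals (145 higher, 22 lower), 191 with the DESeq2 Wald test (114 higher, 77 lower), 151 with limma-voom (67 lower) and 1 (0 higher, 1 lower) without non-irradiated replicates 1 and 2 together. With single libraries left out they ranged from 38 to 124 (20 to 85 higher, 18 to 60 lower). Scaling shifts all miRNAs: their median log2 fold change, 0.27 with TMM, was 0.81 by library size, 1.07 by the authors' totals and 0.49 without muscle miRNAs. The count of called members was 0 in 15 of 17 alternatives and 1 by the authors' totals (miR-152-5p, 1.72), and ranged from 0 to 1 with single libraries left out, where miR-148a-3p ranged from -1.78 to -0.55. miR-148a-3p kept its sign in all alternatives that kept it as an entry of its own and came closest to 0 by the authors' totals, at -0.082. Members near 0 changed sign. miR-148a-5p was at 0.0079 with DESeq2 size factors, 0.0080 with the DESeq2 Wald test, 0.52 by library size, 0.79 by the authors' totals and 0.21 without muscle miRNAs, and from -0.25 to 0.25 with single libraries left out. miR-148b-5p was at -0.062 with upper-quartile factors, -0.032 with no filter and -0.50 without non-irradiated replicates 1 and 2, and from -0.27 to 0.068 with single libraries left out. miR-152-3p was at 0.46, 0.71 and 0.19 by library size, by the authors' totals and with muscle miRNAs left out, and from -0.46 to 0.25 with single libraries left out. miR-152-5p was at -0.10 without non-irradiated replicates 1 and 2. The cause of these shifts was not tested. The lone non-irradiated library in that fit was assumed to vary like the UVA group. With the replicate block, 106 miRNAs and 0 members were called, with miR-148a-3p at -1.04 (edgeR adjusted p = 0.124). The labels state no pairing of samples by number. Deviations of same-numbered libraries from their group means correlated at 0.085, -0.076 and -0.027, and not every library correlated best with its own number. With 3 libraries a group, these values cannot exclude a pairing. The block called 17 of 74 hairpins for strand use against 27, and 0 of the 3 of the family. Summing the guide strands into 1 entry gave -0.83. Strand use and guide ratios kept their sign in all their alternatives, but single libraries moved their size. With 1 library left out, the log2 ratio difference ranged from -2.62 (without UVA replicate 1) to -1.07 (without UVA replicate 2) for miR-148a-3p over miR-148b-3p, from -1.13 (without non-irradiated replicate 1) to -0.32 (without UVA replicate 2) for miR-148a-3p over miR-152-3p, and from -1.54 (without UVA replicate 1) to -0.51 (without UVA replicate 3) for miR-152-3p over miR-148b-3p. The strand use change ranged from 0.42 (without UVA replicate 2) to 1.39 (without UVA replicate 1) for miR-148a, from -1.04 (without UVA replicate 1) to -0.29 (without UVA replicate 2) for miR-148b and from 0.69 (without UVA replicate 3) to 1.63 (without non-irradiated replicate 3) for miR-152. With 3 libraries a group, the intervals of the members are wide, which limits what the absence of calls shows.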
